A study of Mus musculus with 8 samples.

Results

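Keratins are the intermediate filament proteins of epithelial cells, and 10 of them that mark the luminal or the basal layer of glandular epithelium were followed here. The members were fixed by name. The luminal set holds Krt7, Krt8, Krt18, Krt19, Krt23 and Krt4, 6 genes, and the basal set holds Krt5, Krt14, Krt15 and Krt17, 4 genes. All 10 were measured, by 15 of the 22690 probe sets on the array, and they stand among 12393 genes that a probe set names alone. The tissue was the ventral prostate of FVB males that were 8 weeks old. One group of 4 arrays was wild type, and the other group of 4 arrays was transgenic for polyoma virus middle T antigen (MT), a viral protein of the cell membrane that recruits Src-family and phosphatidylinositol 3-kinases. The study set normal prostate against the carcinoma that this transgene gives rise to in the prostate. The sources used here give neither the promoter of the transgene, nor the number of founder lines, nor whether each array held RNA of 1 mouse. The p-values below thus speak of the spread between these arrays only, and part of that spread may be technical.

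A keratin filament is built from pairs of 1 type I (acidic) and 1 type II (basic) keratin, so that an epithelial cell makes both kinds. Krt8 and Krt18 form the standard pair of simple and glandular epithelium, and Krt19 can take the place of Krt18. Krt5 pairs with Krt14 or Krt15 in the basal cells that line the outside of prostate ducts. In the prostate the luminal cells secrete, while the basal cells rest on the basement membrane and hold progenitors. Among the members Krt4, Krt5, Krt7 and Krt8 are of type II and the other 6 are of type I.

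The 15 probe sets all matched 1 mouse RefSeq gene of the same symbol. In that annotation the type II members lie in the keratin cluster of chromosome 15 and the type I members other than Krt18 in that of chromosome 11. Krt18 is the exception, since it directly follows Krt8 on chromosome 15 with no other protein-coding gene between them. Krt15 and Krt19, a basal and a luminal member, are direct neighbours on chromosome 11. RefSeq promoter sequences were at hand for 6 of the 10 members, Krt5, Krt7, Krt8, Krt14, Krt18 and Krt23. Those of the Krt8 and Krt18 pair are shown because both genes were higher in MT, that of Krt23 because it had the largest difference of the 10, and that of Krt5 because it was lower. Each run is the 250 bases before the annotated start, read 5′ to 3′ on the strand of the gene in GRCm38.p6. The windows are chr15:102004343-102004592 on the minus strand for Krt8, chr15:102027966-102028215 on the plus strand for Krt18, chr11:99493121-99493370 on the minus strand for Krt23 and chr15:101712906-101713155 on the minus strand for Krt5. Capitals mark matches to CAGGTG, a form of the E-box (CACCTG on the other strand), and to ATAAAA, a variant of the TATA box. Other forms of the E-box were not searched and stand in lower case.
Krt8: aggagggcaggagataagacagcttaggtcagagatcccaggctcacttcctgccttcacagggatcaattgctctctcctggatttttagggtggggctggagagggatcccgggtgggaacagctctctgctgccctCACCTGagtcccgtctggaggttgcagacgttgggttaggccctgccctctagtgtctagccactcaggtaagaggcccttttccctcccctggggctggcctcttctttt
Krt18: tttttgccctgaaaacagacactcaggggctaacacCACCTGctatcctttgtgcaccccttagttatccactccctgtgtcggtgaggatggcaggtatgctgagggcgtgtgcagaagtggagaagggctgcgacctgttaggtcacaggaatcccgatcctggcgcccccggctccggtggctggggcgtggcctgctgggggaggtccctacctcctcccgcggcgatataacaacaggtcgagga
Krt23: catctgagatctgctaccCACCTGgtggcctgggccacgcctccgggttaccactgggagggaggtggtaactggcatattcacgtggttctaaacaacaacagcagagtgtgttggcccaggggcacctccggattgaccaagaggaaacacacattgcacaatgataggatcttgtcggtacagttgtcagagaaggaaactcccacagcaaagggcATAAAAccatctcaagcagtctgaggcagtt
Krt5: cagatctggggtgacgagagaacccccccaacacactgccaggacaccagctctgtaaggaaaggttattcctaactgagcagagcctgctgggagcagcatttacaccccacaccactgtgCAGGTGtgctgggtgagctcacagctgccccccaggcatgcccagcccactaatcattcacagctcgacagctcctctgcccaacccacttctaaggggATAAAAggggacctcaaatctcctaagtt
The 250 bases of every RefSeq promoter, 32851 in all, were searched on both strands for the E-box letters, for ATAAAA, for the TATA box core TATAAA, for the GC box GGGCGG and for the AP-1 site TGANTCA. No match of one of these motifs overlapped a match of another in the members. CAGGTG was found before Krt5, Krt7, Krt8, Krt18 and Krt23 and in 17.2% of all promoters. ATAAAA was found before Krt5 at position -29, Krt23 at -31 and Krt7 at -7, counted from the start, and in 17.0% of all promoters. GGGCGG was found before Krt7 alone, 4 times, and in 32.7% of all promoters. TATAAA (12.4% of all promoters) and TGANTCA (6.75%) were in none of the 6 windows. The window listed for Krt14 starts inside the span of its gene and held none of the motifs. The motifs were chosen with these sequences in view, and the matches are a description of letters, found before members that were higher and before 1 that was lower.

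The MT prostate had more RNA of most luminal keratins and less of 2 basal ones. Of the 6 luminal members, 5 rose on the deposited scale (Krt23, Krt8, Krt19, Krt18 and Krt7) and 0 fell, while of the 4 basal members 2 fell (Krt15 and Krt5) and 0 rose. With each array centred on 16 pan-epithelial genes, described below, Krt7 (-0.31) was called lower and Krt18 (-0.066) was not called. On that scale 11642 of the 12393 genes were called, and the median of all genes (-0.69) lay below both. A member was called where its adjusted p was under 0.05 in a limma fit over all 12393 genes with Benjamini-Hochberg adjustment, from which all adjusted p-values of genes below come. In the same fit 41.1% of all genes were called, 19.7% higher and 21.3% lower in MT. The median log2 difference, MT minus wild type, was 0.79 over the luminal and -0.53 over the basal members, against -0.01 over all genes. Called changes of at least 2-fold were found for 4 of the 10 members, Krt23, Krt8, Krt5 and Krt15, and for 5.08% of all genes. These are levels in whole tissue, in which fewer cells of a type and less RNA per cell cannot be told apart.

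Krt8, the type II keratin of every simple epithelium, approximately doubled and was the most even member among the MT arrays. Its log2 levels on wild-type arrays 1 to 4 were 11.49, 11.61, 11.44 and 11.55, and on MT arrays 1 to 4 they were 12.54, 12.53, 12.53 and 12.53. All MT values lay above all wild-type values, and the MT values spanned 0.0072 in all. The log2 difference was 1.01 ± 0.06 (SE), 2.02-fold, with an adjusted p of 3.31e-07. The other probe sets of Krt8 gave 1.04 and 1.00, so that all 3 moved alike. None of the 3 is of the type whose probes are unique to 1 transcript.

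Krt18 and Krt19, the type I partners of Krt8, also rose. Krt18 read 11.82, 11.97, 11.68 and 11.88 in wild type and 12.39, 12.56, 12.39 and 12.47 in MT. The groups did not overlap, and the log2 difference was 0.62 ± 0.08 (SE; adjusted p = 6.71e-05), or -0.066 relative to the pan-epithelial genes. Krt19, the keratin that lacks most of the tail domain, read 11.24, 11.78, 11.25 and 11.42 in wild type and 12.28, 12.38, 12.35 and 12.51 in MT. Wild-type array 2 was the highest of its group, and all MT values lay above it. The log2 difference of Krt19 was 0.95 ± 0.11 (SE), 1.94-fold (adjusted p = 5.02e-05).

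Krt23, a type I keratin of glandular epithelium, had the largest difference of the 10. Its levels were 6.24, 6.23, 6.24 and 6.30 in wild type and 7.89, 8.00, 8.00 and 7.62 in MT. The wild-type values lay within 0.08 of each other, and MT array 4 was the lowest of its group while still above every wild-type array. The log2 difference was 1.62 ± 0.09 (SE), 3.08-fold (adjusted p = 1.32e-07), and 98.9% of all genes had a lower one.

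Krt7 and Krt4, type II keratins that are found with Krt8 in ducts and stratified linings, gave no such separation. Krt7 read 7.97, 7.69, 7.61 and 7.89 in wild type and 8.27, 8.39, 8.16 and 7.84 in MT, where array 4 fell among the wild-type values. Its log2 difference of 0.37 ± 0.12 (SE) passed (adjusted p = 0.0271), was lost when wild-type array 2 or 3 or MT array 1, 2 or 3 was left out (adjusted p from 0.0569 to 0.0823), and was -0.31 relative to the pan-epithelial genes. Krt4 read 9.50, 8.48, 9.45 and 10.32 in wild type and 9.24, 9.22, 9.02 and 9.06 in MT. The wild-type values spanned 1.84 and enclosed all MT values, which spanned 0.22. The log2 difference of Krt4 was -0.30 ± 0.29 (SE; adjusted p = 0.441), with a 95% confidence interval from -0.93 to 0.33. Without wild-type array 2, the lowest, it was -0.62 with an adjusted p of 0.0190. Without wild-type array 4, the highest, it was -0.0090 (adjusted p = 0.979), and leaving out any other single array gave no call.

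**Figure D1:**
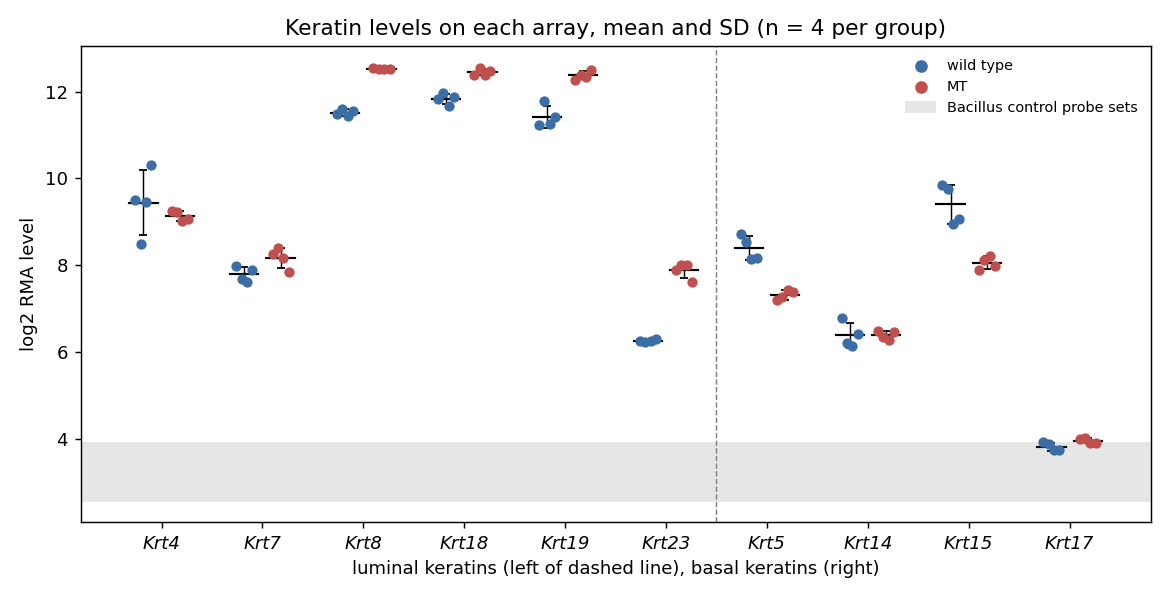
Log2 level (vertical axis) of each of the 10 keratins on the 4 wild-type and 4 MT arrays, with 1 point per array and a line and bars for the mean and SD; the grey band is the range of the 12 newer Bacillus control probe sets, 2.57 to 3.90. Krt8, Krt18, Krt19 and Krt23 have all MT points above all wild-type points on the deposited scale (relative to 16 pan-epithelial genes Krt18 differs by -0.066), Krt5 and Krt15 have them below, and the wild-type points of Krt4 spread over 1.84.

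The groups did not overlap for 4 of 6 luminal members with MT higher, where 19.7% of all genes did so, and for 2 of 4 basal members with MT lower, where 20.4% of all genes did so. Those basal members were Krt5 and Krt15. Krt5, the type II keratin of basal cells, read 8.71, 8.54, 8.15 and 8.16 in wild type and 7.19, 7.26, 7.43 and 7.38 in MT. Its log2 difference was -1.07 ± 0.12 (SE), a level 2.10-fold lower in MT (adjusted p = 3.92e-05). Krt15, a type I keratin of basal cells that is also known from stem cell compartments of stratified epithelium, read 9.84, 9.75, 8.95 and 9.07 in wild type and 7.90, 8.13, 8.22 and 7.97 in MT. Its log2 difference of -1.35 ± 0.19 (SE), 2.54-fold lower (adjusted p = 0.000153), was the lowest of the 10, and 1.00% of all genes had a lower one. Within wild type, arrays 1 and 2 were the higher arrays and 3 and 4 the lower ones for both genes. On the MT arrays, array 1 was the lowest and array 3 the highest for both.

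Krt14 and Krt17, the other basal type I keratins, did not pass. Krt14 read 6.78, 6.21, 6.14 and 6.41 in wild type and 6.49, 6.35, 6.28 and 6.46 in MT, with the MT values inside the wild-type range. The log2 difference was 0.01 ± 0.13 (SE; adjusted p = 0.949), with a 95% confidence interval from -0.26 to 0.29, which does not reach the difference seen for Krt5. That probe set is of a type in which some probes can bind other transcripts. The other probe sets of Krt14 had lower signals, with means of 4.50 and 5.05 in wild type, and differences of 0.10 and 0.08. Of 15 older control probe sets for Bacillus transcripts, the highest read 5.55 to 5.86 over the arrays, above both of these means. Krt17, a keratin of basal cells and of wounded or stressed epithelium, read 3.92, 3.87, 3.74 and 3.73 in wild type and 3.99, 4.02, 3.91 and 3.91 in MT, next to the signal of 12 newer control probe sets for Bacillus transcripts (2.57 to 3.90) and below the highest of the older ones. Its difference was 0.14 ± 0.07 (SE; adjusted p = 0.124). The second probe set of Krt17 (differing by 0.11) was no higher than the highest such control of its own array on any of the 8 arrays, and the chosen one on 1 wild-type array. In a fit over all 22626 probe sets that are no controls, 37.8% were called, and the probe sets that were not chosen to stand for Krt8, Krt14 and Krt17 gave the same calls as the chosen ones.

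**Figure D2:**
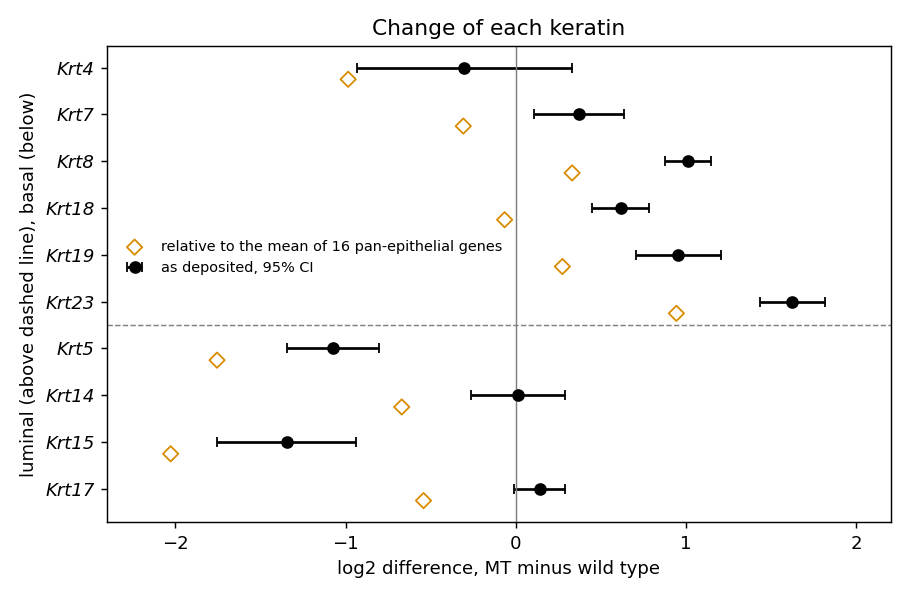
Log2 difference, MT minus wild type, of each keratin (rows), as a filled point with its 95% confidence interval on the deposited scale and as an open diamond relative to the mean of 16 pan-epithelial genes. Krt8, Krt19 and Krt23 keep their side of 0 on both scales, whereas Krt18 moves from 0.62 to -0.066 and Krt7 from 0.37 to -0.31. Krt5 and Krt15 could only stay below 0, since the second scale lowers every difference by 0.68.

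Averaged over its members, the luminal set rose by 0.71 and the basal set fell by 0.57 on the log2 scale, a shift between them of 1.28, and this mean has no test of its own. The mean luminal level minus the mean basal level was 2.71 ± 0.30 (SD, n = 4) in wild type and 3.99 ± 0.08 (SD, n = 4) in MT. It was 2.40, 2.53, 2.87 and 3.05 on wild-type arrays 1 to 4 and 4.04, 4.07, 3.95 and 3.91 on the MT arrays. The groups lay apart, and the shift is the same whatever constant is taken from an array, as with the centring on pan-epithelial genes.

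Within pairs of keratins that share filaments, the difference between the 2 changes ran from 0.06 to 1.08 in size. For 4 pairs the log2 ratio within each array was compared between groups with an exact permutation test of the arrays (two-sided), in which 4 arrays against 4 cannot go below p = 0.0286. The difference of Krt8 was 0.40 above that of Krt18 (exact p = 0.0286, 0.0571 adjusted over the 4 pairs), with ratios of -0.04 to 0.08 in wild type and 0.29 to 0.46 in MT when set relative to their wild-type mean. Krt8 and Krt19 differed by 0.06 (exact p = 0.657, adjusted p = 0.657), with overlapping groups. The difference of Krt5 was 1.08 below that of Krt14 (exact p = 0.0286, adjusted p = 0.0571), with ratios of -0.25 to 0.33 in wild type and -1.30 to -0.85 in MT. Krt5 and Krt15 differed by 0.27 (exact p = 0.0571, adjusted p = 0.0762). None of the 4 passed after adjustment. For Krt8 against Krt18 and Krt5 against Krt14 the unadjusted p was the smallest that this design allows. A pair at that p passes only if most of the 4 pairs reach it, so the adjusted test cannot decide on these pairs.

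**Figure D3:**
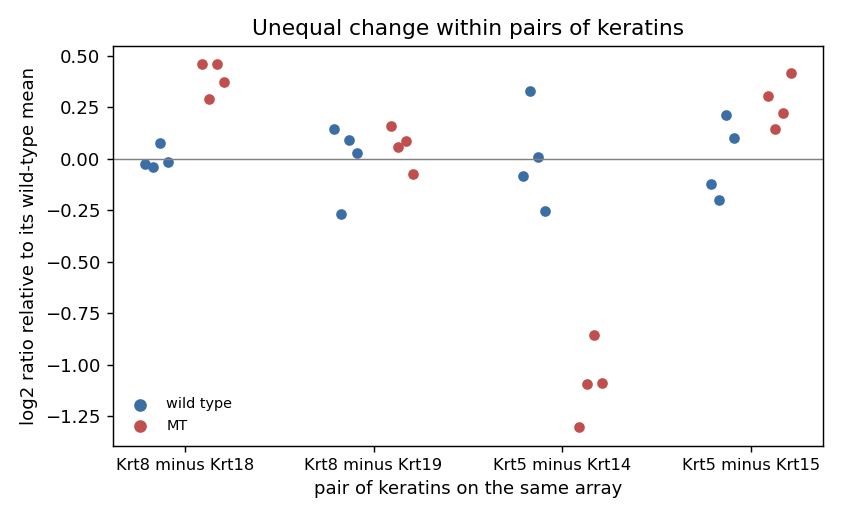
Log2 ratio of 4 pairs of keratins on each array, relative to the mean of the wild-type arrays (vertical axis), with 1 point per array in wild type and MT. The MT points lie above all wild-type points for Krt8 over Krt18 and below them for Krt5 over Krt14, and the groups overlap for the other two pairs.

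The rise of the luminal keratins went with a rise of most genes in a list of pan-epithelial genes. That list, like the others, was chosen with earlier results of these data known. Of 16 pan-epithelial adhesion and identity genes, 13 were higher and 0 lower in MT, with a median of 0.64, led by the epithelial transcription factor Elf3 (1.76 ± 0.08, SE), the tight junction protein Cldn4 (1.26 ± 0.19) and the surface glycoprotein Cd24a (1.13 ± 0.10). Their mean level was 9.83 to 9.96 in wild type and 10.53 to 10.61 in MT. The differences ran from 0.06 to 1.76 with a mean of 0.68, and Rab25 (0.06), Ap1m2 (0.08) and Esrp2 (0.14) were not called. In the same arrays 10 of 10 smooth muscle genes were lower (median -1.07), among them Myl9 (-1.24 ± 0.23), Actg2 (-1.23 ± 0.29) and Myh11 (-1.16 ± 0.21, or -0.78 as the mean of its probe sets), and so were 13 of 14 genes of fibroblasts and matrix (median -0.84). Of all genes, 19.7% were higher and 21.3% lower. The summed-up level of the smooth muscle genes, as a mean, was 9.01 to 9.67 in wild type and 8.00 to 8.82 in MT. The part of these shifts in the keratin changes was not tested. Centring each array on the mean of the pan-epithelial genes moved the median of all genes to -0.69. On that scale 11642 of the 12393 genes were called in limma. Krt23 (0.94), Krt8 (0.33) and Krt19 (0.27) were still called higher, and Krt18 was not called. The sign of Krt18 on that scale (-0.066) was not tested with another choice of epithelial genes. Krt4 (-0.98, adjusted p = 0.00500) and Krt7 (-0.31, adjusted p = 0.0382) were called lower, as were all 4 basal members. Krt15 differed by -2.03 and Krt5 by -1.75, whereas Krt7, Krt14 (-0.67) and Krt17 (-0.54) lay no lower than the median of all genes. Within wild type, array 2 had the lowest mean smooth muscle level (9.01) and the highest Krt8, Krt18 and Krt19. It also had the lowest Krt4 and Krt23, and its Krt7 (7.69) was below that of arrays 1 and 4. A link between these levels was not tested.

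Basal genes other than keratins were divided. Of 13 measured, 3 were lower and 2 higher, with a median of -0.07, against 21.3% and 19.7% of all genes. Trp63, the transcription factor that basal cells depend on, fell (-0.98 ± 0.14, or -0.38 as the mean of its probe sets), as did the hemidesmosomal collagen Col17a1 (-0.65 ± 0.16) and the Notch ligand Jag2 (-0.59 ± 0.08). The signals of Trp63 (means of 5.67 in wild type and 4.69 in MT) and Col17a1 (5.20 and 4.55) were low. The highest older Bacillus control read 5.55 to 5.86. The integrins Itgb4 (1.13 ± 0.10) and Itga3 (0.49 ± 0.08), which anchor epithelium to laminin, rose, Itga3 by less than the mean of the pan-epithelial genes (0.68). The laminin chain Lamb3 differed by -0.01 ± 0.10 (adjusted p = 0.941) and the cadherin Cdh3 by 0.16 ± 0.06 (adjusted p = 0.0718). Of these, Jag2, Itga3, Lamb3 and Cdh3 were chosen after their values were seen.

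The secretory genes of luminal cells did not go with the luminal keratins. Of 9 measured luminal genes other than keratins, 5 were lower and 4 higher, with a median of -2.09, against 21.3% and 19.7% of all genes. Those that fell were secretory or metabolic, led by the androgen-regulated probasin Pbsn (-4.16 ± 0.29), the trypsin inhibitor Spink1 (-3.03 ± 0.09) and the glycoprotein Azgp1 (-2.75 ± 0.10). The 4 that rose, named after their values were seen, were the transcription factors Foxa1 (0.42 ± 0.08) and Hoxb13 (0.26 ± 0.06), Tmprss2 (0.31 ± 0.09) and Dpp4. Dpp4 had the largest rise (0.85 ± 0.11, or 0.54 as the mean of its probe sets). Foxa1, Hoxb13 and Tmprss2 rose less than the mean of the pan-epithelial genes described above (0.68).

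Among the anchors of keratin filaments, desmosome genes went both ways. Of 11 measured, 5 were higher and 2 lower, with a median of 0.20, where 19.7% of all genes were higher and 21.3% lower. The desmosomal cadherin Dsc2 rose by 1.35 ± 0.08 and desmoplakin (Dsp), which ties keratins to the desmosome, by 0.42 ± 0.08, while Perp, a membrane protein needed for desmosomes in stratified epithelium, fell (-2.19 ± 0.08). Dsp rose by less than the mean of the pan-epithelial genes (0.68). In wild type the means of Dsc2 (5.19) and of Sfn (5.17), named next, were below the highest older Bacillus control (5.55 to 5.86). Of 11 plakins and keratin-associated proteins, 3 were higher and 1 lower, with a median of 0.13, a share called near the 41.1% of all genes. The 3 that rose were epiplakin, Eppk1 (1.57 ± 0.11), the small heat shock protein Hspb1 (1.34 ± 0.10) and the 14-3-3 protein Sfn (1.21 ± 0.12), and the 1 that fell was the plakin Dst (-0.24 ± 0.08, or -0.50 as the mean of its probe sets), chosen after its values were seen.

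Of the remaining keratins on the array, 30 in number, 2 were higher and 3 lower, where 19.7% and 21.3% of all genes were, with differences from -0.51 to 0.31 and a median of -0.03. Those called were Krt79 (-0.51 ± 0.13), Krt33a (-0.35 ± 0.07), Krt77 (-0.26 ± 0.10), Krt88 (0.31 ± 0.11) and Krt82 (0.19 ± 0.07). Krt82 was no higher than the highest newer Bacillus control of its own array on 1 array. The signals of all these called keratins were low, with group means from 3.77 (Krt33a in MT) to 5.86 (Krt79 in wild type). The highest older Bacillus control read 5.55 to 5.86. Krt6a, Krt10 and Krt13, keratins of stressed or stratified epithelium chosen after their values were seen, differed by 0.11, -0.23 and 0.04 and were not called (adjusted p = 0.267, 0.178 and 0.811), although Krt6a was 0.26 higher as the mean of its probe sets (adjusted p = 0.00403). Of 12 squamous differentiation genes, 1 was higher (Sprr1a, 0.84 ± 0.13) and 2 were lower (Tgm1 and Krtdap). Of 13 intermediate filament genes of other families, 3 fell and 2 rose, a share near the 41.1% of all genes called, with the muscle filament Des (-1.01 ± 0.20, or -0.47 as the mean of its probe sets) and the mesenchymal filament Vim (-0.73 ± 0.18) among those that fell.

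**Figure D4:**
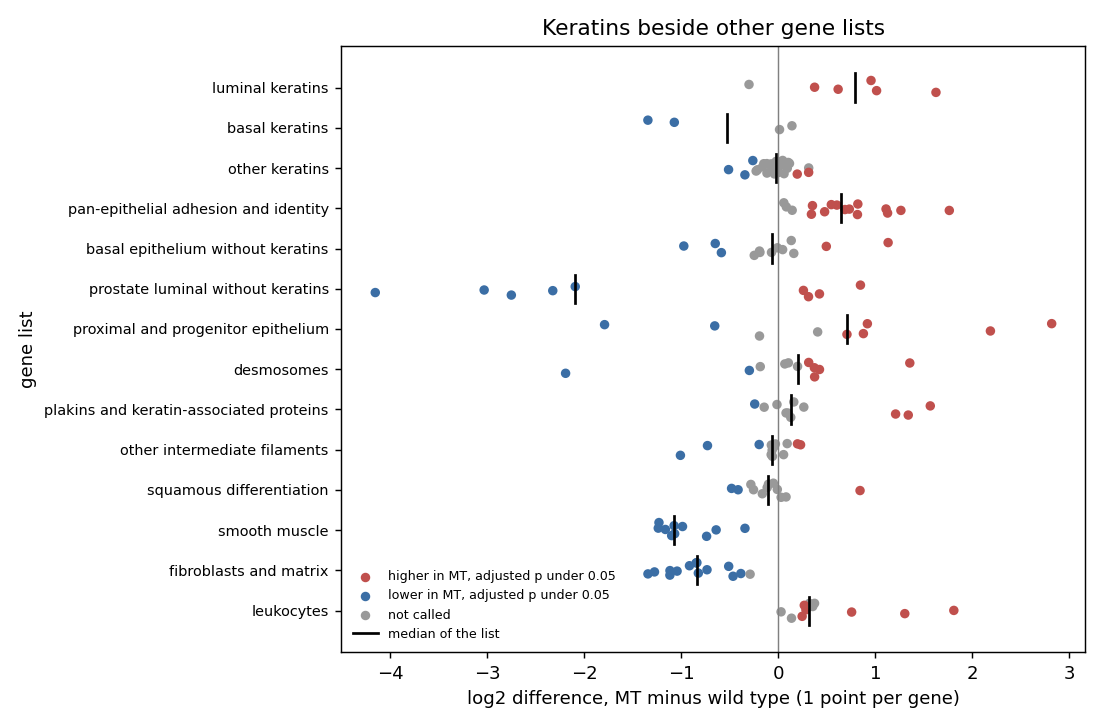
Log2 difference, MT minus wild type (horizontal axis), of each gene in 14 lists (rows), with 1 point per gene coloured by its call in limma at an adjusted p under 0.05 and a black line at the median of the list. On the deposited scale, 5 of 6 luminal keratins and 13 of 16 pan-epithelial genes are higher (19.7% of all genes). There 10 of 10 smooth muscle genes are lower (21.3% of all genes). Relative to the pan-epithelial genes Krt7 is called lower and Krt18 (-0.066) is not called. On that scale 11642 of the 12393 genes are called, with a median of -0.69 over all genes.

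Genes whose pattern over the 8 arrays was most like that of Krt8 were Ctsa (Pearson r = 0.999), Cxcl15 (0.998) and Ywhab (0.998). For Krt5 they were Ryk (0.996), Tulp1 (0.994) and Copa (0.992). These correlations are descriptions over 8 arrays in 2 groups, and the difference between the groups sets most of each.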

How the data were processed

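RNA of 8 arrays, 4 per group, was measured on Affymetrix arrays. The authors deposited log2 values from RMA, per the submitters' processing notes. No RMA version is stated in these sources. Array medians ran from 6.21 to 6.23, and no further scaling or filter was applied. Of 22690 probe sets, 64 were controls, 20380 had 1 gene symbol, 691 several and 1555 none. The probe set with the highest mean stood for a gene. The number of arrays limits the precision.

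Differences were tested with limma 3.58.1 (R 4.3.3; lmFit and eBayes, no covariate, two-sided), adjusted by Benjamini-Hochberg over 12393 genes. The fit was tested on simulated data. Figures used matplotlib 3.10.9 under Python 3.11.15, with pandas 2.3.3. The members and lists were chosen with earlier results of these data known. Genes named besides the members were up to 3 of each list with the largest called changes, the called keratins and the 3 genes nearest in pattern to Krt8 and Krt5, and others are marked.

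Arrays with the same number in their titles deviated together from their group means (correlations across genes of 0.10, 0.18, 0.16 and 0.13). The numbers were treated as pairs in an alternative with a replicate block. The excess of 3′ over 5′ control probe sets, which grows as RNA degrades, was 0.19 lower for Gapdh and 0.18 lower for Actb in MT (two-sided exact permutation p = 0.0857 and 0.114, n = 4 per group).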

Additional observations from a re-analysis of the deposited data

How the results depend on the processing

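Up to 19 alternatives were run for each result, 13 of them for the shift between the luminal and the basal set, which ran from 1.17 to 1.39. Among these, the centring on array medians and that on pan-epithelial genes take a constant from each array and cannot change the shift. Krt23, Krt8, Krt19, Krt5 and Krt15 kept their direction and their call in all alternatives that measured them. The centring on pan-epithelial genes lowers every difference by 0.68, so there the direction of Krt5 and Krt15 was fixed in advance. Unique-type probe sets left 4 luminal members, of which 3 were called higher, because Krt7 and Krt8 have no such probe set, and no shift was computed there. Relative to the pan-epithelial genes 11642 genes were called, 3 luminal members were higher and 2 lower (Krt4 and Krt7), and 4 basal members were lower. On that scale the differences were -0.31 for Krt7, -0.066 for Krt18 (not called), -0.67 for Krt14 and -0.54 for Krt17. None of these lay below the median of all genes there (-0.69). The signs were opposite to those on the deposited scale, where Krt14 and Krt17 were not called. The call of Krt7 was lost in 8 alternatives, among them array weights (adjusted p = 0.0502 in limma). On leaving out each array in turn, 4 to 5 luminal members were higher, 2 basal members lower, and 4476 to 4972 of all genes called. With a replicate block, pairing arrays of the same number, 5211 genes were called and no call of a member changed. Without both wild-type array 4 and MT array 2, the fit changed the call of Krt7 alone among the members (adjusted p = 0.0831). No depth applies to arrays, and the low signal of Krt17 limits what could be seen of it.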

Other observations

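Of 9 measured markers of proximal and progenitor epithelium, where Krt4 and Krt7 are also found, 5 were higher and 2 lower in MT, with a median of 0.71. Of all genes 19.7% were higher and 21.3% lower. The secreted protein Wfdc2 rose from 8.30 ± 0.30 to 11.12 ± 0.03 (SD, n = 4 per group), and the hyaluronan receptor Cd44 from 6.59 ± 0.21 to 8.78 ± 0.11. Psca, a surface antigen of the proximal prostate and urothelium, fell from 8.32 ± 0.18 to 6.53 ± 0.12. The uroplakin Upk1a, a urothelial membrane protein, fell from 11.22 ± 0.31 to 8.57 ± 0.31 and was the 1 of 4 uroplakins called.

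Of all genes, 19.7% were called higher and 21.3% lower in MT. Cell cycle genes were higher for 9 of 11 measured, led by Mki67 (2.43 ± 0.15, SE), Birc5 (2.25 ± 0.14) and Ube2c (2.21 ± 0.12), and leukocyte genes for 6 of 11, led by Ptprc (1.81 ± 0.22), Cd14 (1.30 ± 0.09) and Cd3g (0.76 ± 0.21). Cd3g was no higher than the highest newer Bacillus control of its own array on 1 array. None of 5 seminal vesicle genes was called in limma, and the one with the highest signal, Svs5, differed by 0.00090 ± 0.10 (adjusted p = 0.996). Of 6 neuroendocrine genes 1 was called, Chga (-0.27 ± 0.07), and of 8 endothelial genes 1, Tek (-0.50 ± 0.12). Of 8 measured housekeeping genes, 4 were higher and 1 lower, with a median of 0.21, led by Gusb (0.95 ± 0.10).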
